A study of Homo sapiens with 11 samples.

Results

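Of the 6432 domain boundaries listed for the lung carcinoma line H209, 546 (8.49%) had no boundary of the carcinoma line DMS153 or of the fibroblast line MRC5 within 40 kb, and these boundaries found in H209 only are described here. The 3 lines together list 20388 boundaries. A boundary is a place where a contact domain starts or ends: all starts and ends of a line's deposited domain list were taken, without the Y chromosome, and positions within 20 kb of one another were joined to their mean. The members were chosen by the domain positions in the 3 deposited lists, so everything that follows about their positions, distances and scores is a description without a test. RNA was not used to choose them.

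H209 and DMS153 are human cell lines grown from small cell lung carcinomas, which resemble neuroendocrine cells, and MRC5 (MRC-5) is a line of noncancerous lung fibroblasts. All were untreated and grown in culture in the same medium. Hi-C reads which pieces of DNA touch, after crosslinking, digestion with MboI and ligation, and gave 1 library for each line. RNA-seq was run on 2 libraries of H209, 3 of DMS153 and 3 of MRC5, given as FPKM (fragments of a gene's RNA scaled by its length and by all mapped fragments of the library). The RNA titles of DMS153 read DM153, taken here as the same line. Each line is 1 tumour or 1 fibroblast culture, so a difference between lines stands for these lines and not for their cell types.

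Contact domains, often called topologically associating domains, are stretches of chromatin whose parts touch each other more often than they touch the neighbouring DNA. In mammals many of their boundaries carry binding sites of CTCF, at which cohesin is halted while it extrudes loops of DNA, and many lie close to active genes. A boundary limits which enhancers meet which promoters, and its loss can expose a gene to an enhancer of the next domain.

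The summed levels of epithelial and fibroblast genes divided the lines as labelled. The summed level of 4 epithelial markers was 767 to 771 FPKM in the H209 libraries and 997 to 1091 FPKM in the DMS153 libraries, against 94.6 to 106 FPKM in the MRC5 libraries. That of 8 fibroblast genes was 27.3 to 32.3 FPKM in H209 and 6.98 to 8.70 FPKM in DMS153, against 7642 to 8486 FPKM in MRC5. Single genes divided the lines less sharply. Of the epithelial markers 2 of 4 averaged at least 1 FPKM in MRC5, and of the fibroblast genes 2 of 8 did in each carcinoma line. Immune markers summed to at most 0.307 FPKM and endothelial markers, of which 2 of 3 were in the tables, to at most 0.637 FPKM in any library. The files hold no read counts. For genes near the H209-only boundaries with 1 to 10 FPKM, the deposited confidence interval reached upward by a library median of 10.1% to 13.1% of the value.

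The promoters of genes at 2 places are shown first. These places hold the genes that differed most from MRC5 among those higher, or lower, in H209 than in both other lines. On chromosome 17 an H209-only boundary lay between TOP2A, which encodes DNA topoisomerase II alpha of dividing cells, and IGFBP4, which encodes a secreted binding protein of insulin-like growth factors. On chromosome 18 the ends of an H209-only domain lay beside THOC1, a subunit of the THO complex that couples transcription to RNA export, and near TYMS, thymidylate synthase, the enzyme that makes thymidylate for DNA synthesis. The sequences are 250 bases before to 50 bases after the RefSeq start of each gene in GRCh38.p14, whereas all boundary positions are in hg19, and each is written 5′ to 3′ on the strand of its gene. Capitals mark matches, on either strand, to any of 4 motifs: CCAAT, bound by the factor NF-Y, CAGCTG, which is a form of the E-box, TTTNNCGC, which is a form of the E2F site, and AGGGGGC, which is part of the core of the CTCF site.
TOP2A: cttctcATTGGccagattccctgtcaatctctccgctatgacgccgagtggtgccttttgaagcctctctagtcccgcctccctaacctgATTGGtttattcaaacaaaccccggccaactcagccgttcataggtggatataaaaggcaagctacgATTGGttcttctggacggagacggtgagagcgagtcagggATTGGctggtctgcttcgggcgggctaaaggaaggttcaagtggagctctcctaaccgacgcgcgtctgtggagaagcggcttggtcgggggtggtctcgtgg
IGFBP4: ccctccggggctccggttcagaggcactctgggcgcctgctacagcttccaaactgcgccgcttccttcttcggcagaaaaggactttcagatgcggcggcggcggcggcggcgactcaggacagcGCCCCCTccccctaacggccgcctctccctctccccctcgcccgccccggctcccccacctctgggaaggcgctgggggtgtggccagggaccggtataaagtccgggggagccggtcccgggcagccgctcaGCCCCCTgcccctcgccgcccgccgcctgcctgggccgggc
THOC1: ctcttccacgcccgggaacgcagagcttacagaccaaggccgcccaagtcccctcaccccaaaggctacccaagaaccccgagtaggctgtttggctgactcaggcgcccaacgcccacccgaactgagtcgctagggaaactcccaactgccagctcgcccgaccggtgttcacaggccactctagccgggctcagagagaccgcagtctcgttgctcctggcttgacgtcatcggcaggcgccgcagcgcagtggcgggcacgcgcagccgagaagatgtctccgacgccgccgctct
TYMS: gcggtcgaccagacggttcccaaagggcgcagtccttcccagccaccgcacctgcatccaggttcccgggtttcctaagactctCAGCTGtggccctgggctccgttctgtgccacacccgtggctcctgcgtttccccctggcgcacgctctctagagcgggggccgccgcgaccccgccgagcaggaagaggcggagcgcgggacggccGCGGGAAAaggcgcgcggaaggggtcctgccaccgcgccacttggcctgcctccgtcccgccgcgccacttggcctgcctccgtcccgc
The TOP2A promoter (chr17:40417847-40418146, minus strand) holds 4 matches to CCAAT, all written ATTGG because they lie on the opposite strand, and none to the other motifs. The IGFBP4 promoter (chr17:40443200-40443499, plus strand) holds 2 matches to AGGGGGC, likewise on the opposite strand, and no others. The TYMS promoter (chr18:657403-657702, plus strand) holds 1 CAGCTG and 1 E2F match, also on the opposite strand, and that of THOC1 (chr18:267998-268297, minus strand) holds none of the 4. The E2F motif was in 7.78% of the 707 promoters of tested genes near H209-only boundaries, 9.19% of the 16175 promoters of all tested genes and 6.89% of all 35116 promoters. The CTCF motif was in 20.7%, 19.2% and 14.4%, CCAAT in 34.9%, 34.3% and 34.6%, and the E-box in 17.8%, 17.8% and 17.9%. Promoters near these boundaries thus held each motif about as often as those of tested genes in general. A match is a run of letters and not a measured binding site. The hg19 sequence at the boundaries themselves was not used here.

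H209-only boundaries lay a median of 120 kb from the nearest boundary of another line (upper quartile 240 kb), and 13 lay over 1 Mb away. The nearest boundary belonged to DMS153 for 235 members and to MRC5 for 192, and for 119 the distances were equal. The lists use a grid of 20 kb. Of the members, 2 lay within 1 base past the 40 kb limit and 110 within 1 grid step of it. Another 136 H209 boundaries had their nearest neighbour at the limit or 1 base under it and are not members, so a single bin decides for such boundaries.

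Most H209-only boundaries marked the edge of a single domain. A domain started at 275 of them and ended at 248, and at 23 (4.21%) a domain ended and the next one began. Among the other 5886 boundaries of H209, 1495 (25.4%) joined an end and a start. The domains that bordered on a member had a median deposited score of 1.87 where the boundary belonged to 1 domain (523 members), against 2.1 at the other such boundaries (4391). The meaning of that score is not stated, and the lowest score listed for H209 is 1.5. Both ends were found in H209 only for 68 domains, with a median length of 170 kb and a median score of 1.75. In 433 domains 1 end was found in H209 only, with medians of 340 kb and 1.89, and in 3474 neither end was, with medians of 300 kb and 2.14. Domains that stood in H209 alone at both ends were thus the shorter and the lower scored ones.

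H209-only boundaries lay outside the domains of both other lines about as often as inside a domain of at least 1 of them. Of the 546 H209-only boundaries, 276 (50.5%) lay in no domain of either line, 110 inside domains of both, 77 inside one of DMS153 alone and 83 inside one of MRC5 alone. Domains covered 1773 Mb in H209, 1713 Mb in DMS153 and 1651 Mb in MRC5. The lists differ in length, with 3975 domains in H209, 5023 in DMS153 and 3698 in MRC5. DMS153 had 1670 boundaries of its own (21.0% of 7948) and MRC5 had 839 (14.0% of 6008). These shares depend on the list lengths. With each list cut to equal numbers of its highest-scored domains, 698 of 6036 H209 boundaries (11.6%) were found in H209 only. With 1 Hi-C library per line, a boundary that one line has and another lacks cannot be told apart from one that a second library of the same line would lack.

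H209-only boundaries were found on every chromosome examined. Their share of the line's boundaries was highest on chromosome 18 (20 of 141, 14.2%) and on the X chromosome (37 of 266, 13.9%), and lowest on chromosome 12 (19 of 364, 5.22%). The X chromosome also had the highest share of boundaries found in DMS153 only (31.3%) and, with 19.5%, nearly the highest share found in MRC5 only. On chromosome 18 the shares for DMS153 and MRC5 were 26.3% and 15.1%.

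**Figure D1:**
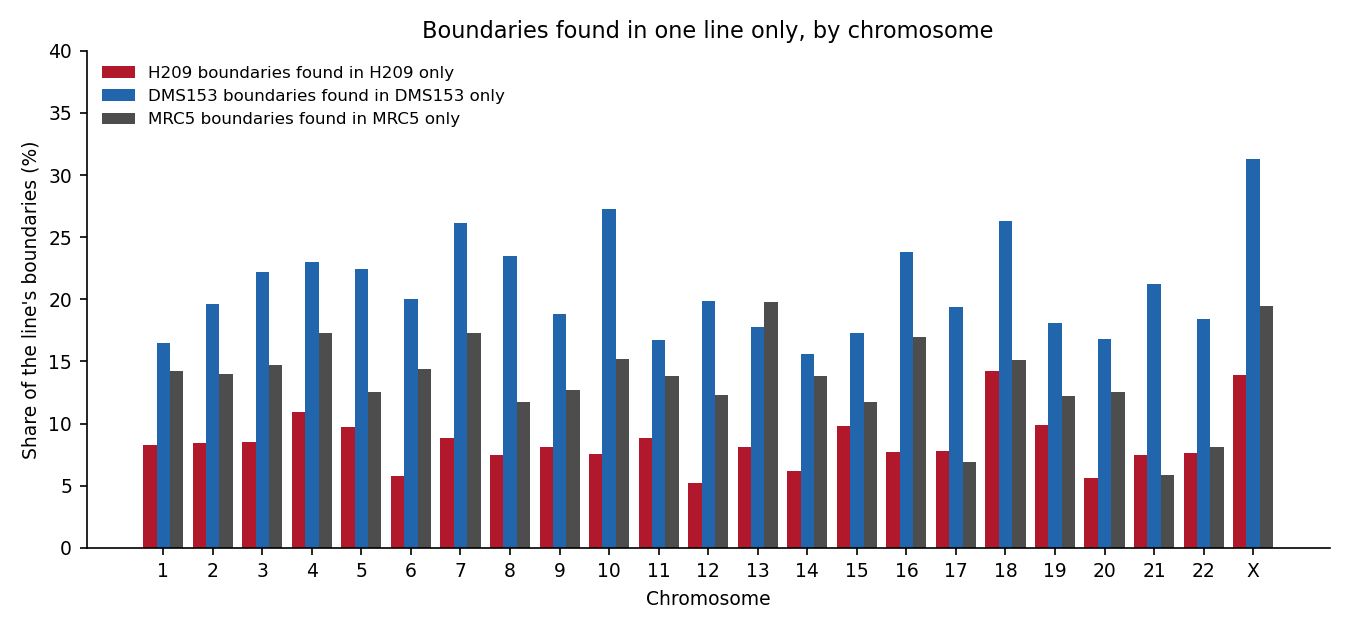
Share of each line's boundaries that no other line has within 40 kb (y axis, %), by chromosome (x axis), with bars for H209, DMS153 and MRC5 from left to right and 1 Hi-C library per line. H209 stands highest on chromosomes 18 (14.2%) and X (13.9%), and DMS153 exceeds H209 on every chromosome.

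The 5 members farthest from any boundary of the other lines were at positions 92019999 and 92200000 of chromosome 2, the ends of one domain, whose nearest boundary was 4040 kb and 3860 kb away, at 15199999 of chromosome 21, at 18539999 of chromosome 18 and at 46419999 of chromosome 16. Of these 5, only the one on chromosome 18 had a tested gene within 40 kb. It lay inside ROCK1, which encodes a kinase that acts on the actin cytoskeleton. ROCK1 stood at 31.1 and 32.3 FPKM in H209, 34.5, 35.1 and 34.4 FPKM in DMS153 and 17.6, 19.4 and 16.8 FPKM in MRC5. H209 was above MRC5 by 0.79 ± 0.07 log2 units (SE, limma adjusted p = 6.50e-06), short of the size needed for a call, and the difference from DMS153 did not pass the test (-0.12 ± 0.07, limma adjusted p = 0.155). ROCK1P1, a copy of this gene, is also among the tested genes, so reads may be shared. Whether reads can be placed in the DNA around these 5 positions was not tested, so the distances may not measure contacts alone.

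Within 40 kb of the H209-only boundaries lay 1447 genes. RNA was compared on log2(FPKM + 1) with limma over all genes at 1 FPKM or more in at least 2 libraries, 19066 in all. Each line had its own mean, which left 5 residual degrees of freedom. A gene counts as called where its p, adjusted after Benjamini and Hochberg over the 19066 genes, is below 0.05 and its log2 fold change is 1 or more in either direction. Fold changes on this scale understate the change of genes at low FPKM. The labels do not say whether replicates are separate cultures, so p-values measure how these libraries spread, perhaps for technical reasons, and in bulk RNA fewer expressing cells and less RNA per cell cannot be told apart. Of the 1447 genes, 647 (44.7%) passed the filter on low values, against 33.0% of all 57815 genes listed.

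Genes were listed near most H209-only boundaries, though fewer than near boundaries that all 3 lines have, with 2.72 and 3.24 genes per boundary within 40 kb. No gene was listed within 40 kb of 53 members (9.71%, against 3.84% of the boundaries of all 3 lines) and no tested gene within 40 kb of 200, which left 346 with at least 1 tested gene. A gene contained 312 of the boundaries and a tested gene 225. The 231 tested genes that contained a boundary were long, with a median of 82.5 kb, against 37.4 kb for all tested genes near the boundaries and 22.9 kb for all tested genes. At 36.6%, H209-only boundaries lacked a tested gene about as often as those found in MRC5 only (35.6%) and in DMS153 only (40.7%), whereas boundaries of H209 that both other lines have lacked one in 18.9% of cases.

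Genes near H209-only boundaries were expressed at somewhat higher levels than genes at large, and this held for the lines that lack the boundaries too. The median tested gene near them had 9.65 FPKM in H209, 9.85 FPKM in DMS153 and 6.12 FPKM in MRC5, against 7.24, 7.15 and 4.60 FPKM over all tested genes. Of the 1447 genes near them, 570 (39.4%) averaged at least 1 FPKM in H209, 567 (39.2%) in DMS153 and 489 (33.8%) in MRC5. The same shares over all genes were 27.7%, 28.7% and 23.3%.

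The share of genes called near H209-only boundaries was close to that of all genes in every comparison. Of the 647 genes, 216 were higher in H209 than in MRC5 (33.4%, background 33.0%) and 101 were lower (15.6%, background 14.9%). Against DMS153, 78 were higher in H209 (12.1%, background 13.4%) and 71 lower (11.0%, background 13.8%). H209 was higher than both lines in 49 genes (7.57%, background 8.07%) and lower than both in 21 (3.25%, background 2.82%). The median log2 fold change near the boundaries was 0.43 against MRC5 and -0.01 against DMS153, beside 0.46 and 0.04 over all genes tested. The median absolute log2 fold change was 0.97 and 0.53, beside 0.95 and 0.57. Shares this near the background are no result about the boundaries. The split into higher and lower depends on the scaling. Among calls against MRC5 near the boundaries 68.1% were higher in H209 on deposited FPKM, 43.8% after median ratio scaling and 53.5% after quantile normalization, and against DMS153 52.3% on deposited FPKM and 82.3% after rescaling to TPM.

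Classes of boundaries side by side gave like shares. Genes higher in H209 than in MRC5 made up 33.4% near boundaries of DMS153 only, 31.7% near those of MRC5 only and 31.4% near those all 3 lines have. Genes lower in H209 than in DMS153 made up 11.0% near H209-only boundaries and 17.5% near boundaries of DMS153 only, the widest gap between the classes, which was not tested. Genes higher in H209 than in both lines made up 7.57%, 7.16%, 6.67% and 6.85% near boundaries of H209 only, DMS153 only, MRC5 only and all 3 lines.

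**Figure D2:**
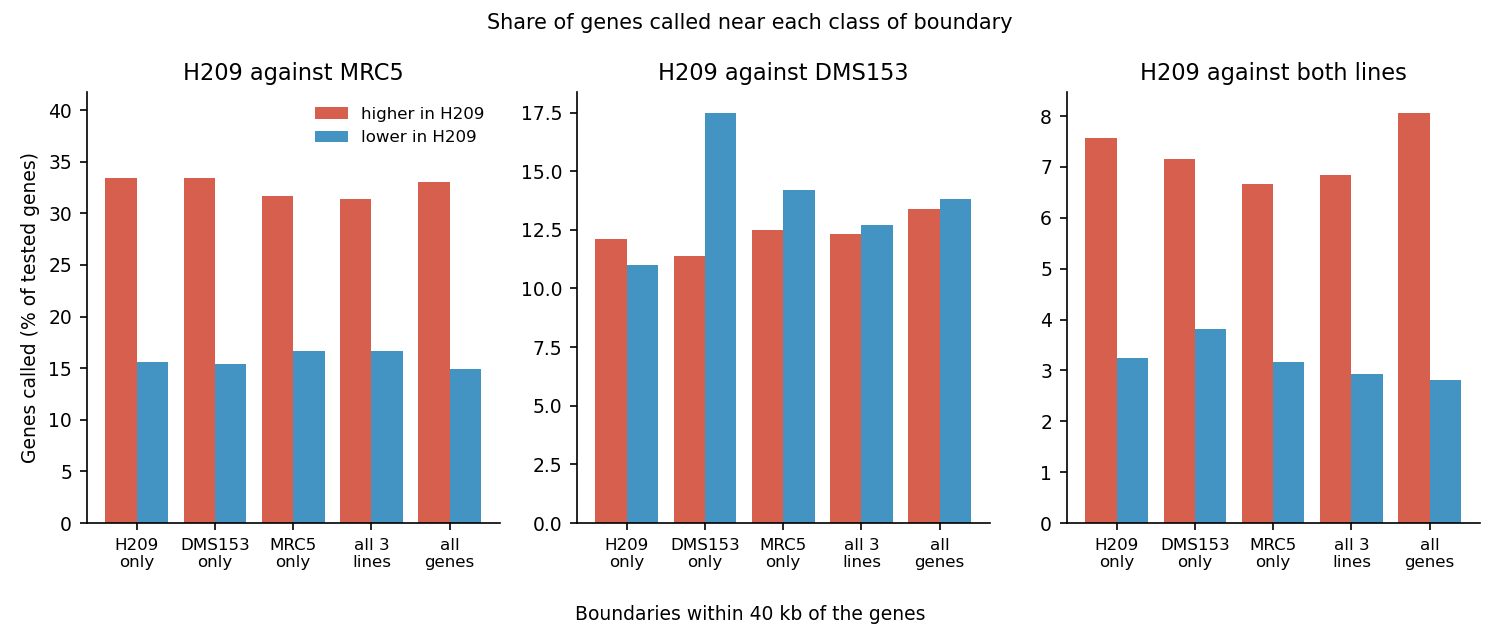
Share of tested genes called higher (left bars) or lower (right bars) in H209 (y axis, %) within 40 kb of boundaries of H209 only, DMS153 only, MRC5 only and all 3 lines, and over all 19066 tested genes (x axis), in H209 against MRC5, against DMS153 and against both. Near H209-only boundaries the bars stand at 33.4% and 15.6%, 12.1% and 11.0%, and 7.57% and 3.25%, close to those over all genes.

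Single genes beside these boundaries nevertheless differed widely between the lines. Most genes named below were picked only where libraries of the compared lines did not overlap, so their lack of overlap is no result. The 49 genes higher in H209 than in both other lines lay near 40 boundaries on 17 chromosomes, and 19 of them contained the boundary. Chromosome 19 held 9 and chromosome 18 held 7. Their log2 fold changes spanned 1.07 to 4.43 against MRC5 and 1.05 to 3.60 against DMS153. Leaving out the first H209 library brought the 49 genes down to 32. The 21 lower genes lay near 20 boundaries on 12 chromosomes, with log2 fold changes of -8.10 to -1.01 against MRC5 and -4.04 to -1.06 against DMS153.

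**Figure D3:**
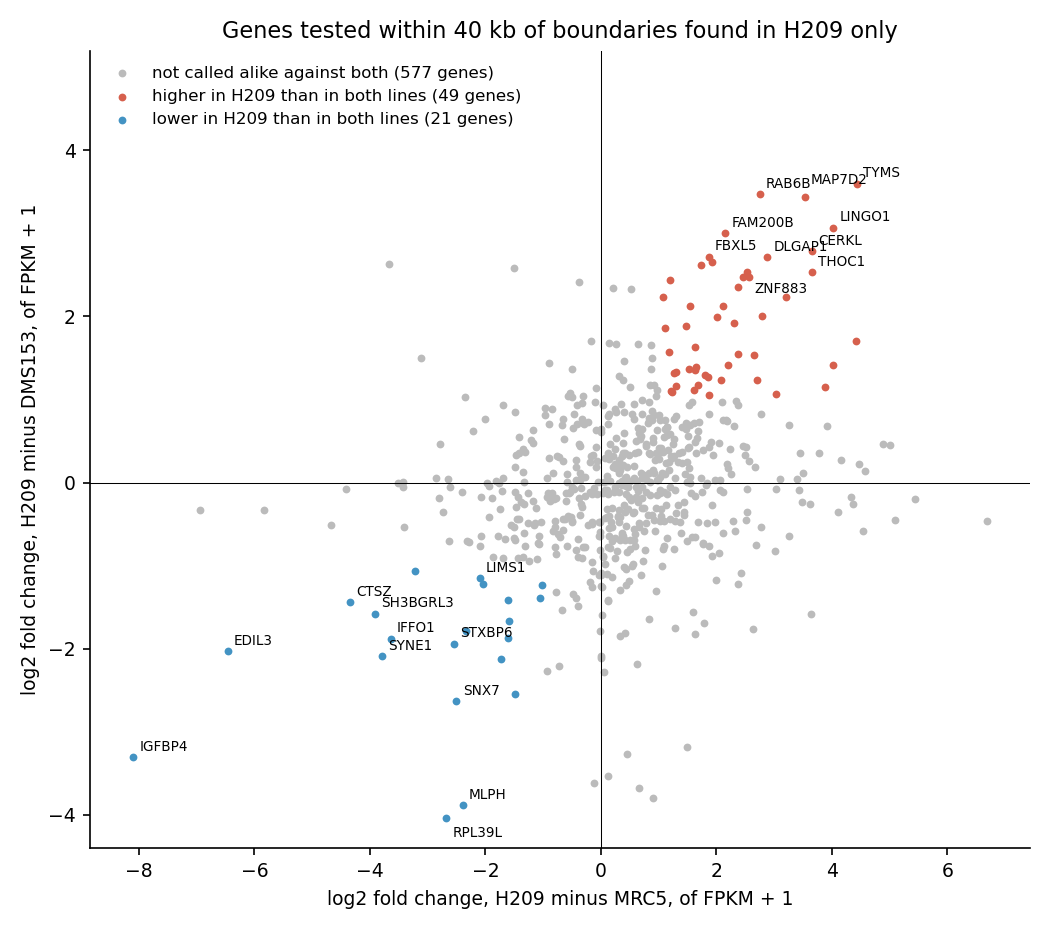
Log2 fold change of FPKM + 1 of the 647 tested genes near H209-only boundaries, H209 minus MRC5 (x axis) and H209 minus DMS153 (y axis). Each point is 1 gene, both axes share the H209 libraries, and the 49 genes called higher and the 21 called lower than both lines lie at the upper right and lower left, with TYMS at the upper end and IGFBP4 lowest on the x axis and RPL39L lowest on the y axis of the lower group.

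The highest of them was TYMS (chromosome 18, 657604 to 673578 in hg19), 37.6 kb from a boundary. TYMS stood at 461 and 486 FPKM in H209, at 37.1, 41.0 and 36.2 FPKM in DMS153 and at 20.5, 20.8 and 21.7 FPKM in MRC5. Every H209 library lay far above every library of the other lines, and lack of overlap was a condition for picking the gene. The log2 fold change was 4.43 ± 0.07 against MRC5 (SE, limma adjusted p = 8.95e-11) and 3.60 ± 0.07 against DMS153 (limma adjusted p = 1.02e-09). THOC1 (214520 to 268050) lay 11.9 kb from another boundary. It stood at 159 and 168 FPKM in H209, 28.4, 26.9 and 27.3 FPKM in DMS153 and 12.7, 11.1 and 12.5 FPKM in MRC5. Its lack of overlap was likewise a condition for picking it. THOC1 was higher by 3.65 ± 0.08 and 2.53 ± 0.08 log2 units (limma adjusted p = 2.98e-10 and 1.08e-08).

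Both boundaries are the ends of 1 domain of H209 on the short arm of chromosome 18, listed from 279999 to 619998 (340 kb, score 1.66). Neither DMS153 nor MRC5 has a domain there, and the nearest boundary of either line lies 580 kb from the first end and 240 kb from the second. THOC1 lies outside the first end and TYMS outside the second. Inside it lie CLUL1, which crosses the second end, and COLEC12, a scavenger receptor of the collectin family. CLUL1 stood at 2.65 and 2.66 FPKM in H209, 0.690, 0.491 and 0.295 FPKM in DMS153 and 0.0278, 0.0164 and 0.113 FPKM in MRC5, and was called higher than both. COLEC12 was lower in H209 than in MRC5 by 1.81 ± 0.07 log2 units (limma adjusted p = 2.05e-08), with 0.0365 and 0.0298 FPKM in H209 and 2.47 to 2.83 FPKM in MRC5, and its difference from DMS153 did not pass the test (0.02 ± 0.07, limma adjusted p = 0.844).

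The higher level was not limited to the genes at the ends of that domain. Within 600 kb of its second end, 14 of 17 tested genes (82.4%) were higher in H209 than in both lines, beside 8.07% of all tested genes. The 14 include the genes so called within 40 kb of the ends, 2 at the first and 4 at the second. After median ratio scaling 11 of 16 were, after quantile normalization 11 of 17 and after TPM scaling 15 of 17. USP14, a deubiquitinase of the proteasome, stood at 145 and 134 FPKM in H209, 14.9, 14.4 and 14.1 FPKM in DMS153 and 41.0, 36.1 and 39.7 FPKM in MRC5. YES1, a kinase of the SRC family, stood at 63.9 and 61.7 FPKM in H209, 13.2, 10.7 and 13.8 FPKM in DMS153 and 16.7, 13.7 and 15.7 FPKM in MRC5. ADCYAP1, the gene of the neuropeptide PACAP, stood at 102 and 107 FPKM in H209 and 19.1, 17.0 and 20.1 FPKM in DMS153 and was listed at 0 in MRC5. All 3 genes, chosen after their values were seen, had H209 libraries clear of those of both other lines. The 12 other tested genes within 1 Mb of the second end are among the same 17 and include THOC1, so they are no separate count. Their median log2 fold change was 1.89 against MRC5 and 1.82 against DMS153, and 10 of them were called higher than both. The higher levels thus spanned the region on both sides of the H209-only domain. Several of the 17 genes overlap in their listed loci. TYMS overlaps ENOSF1 and C18orf56, and C18orf56 overlaps CLUL1 and the clone RP11-806L2.2. ENOSF1 contains the clone RP11-806L2.6, and ADCYAP1 overlaps the clone RP11-672L10.2. Since no strand is given their reads may be shared, so the 17 genes may not be separate counts.

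**Figure D4:**
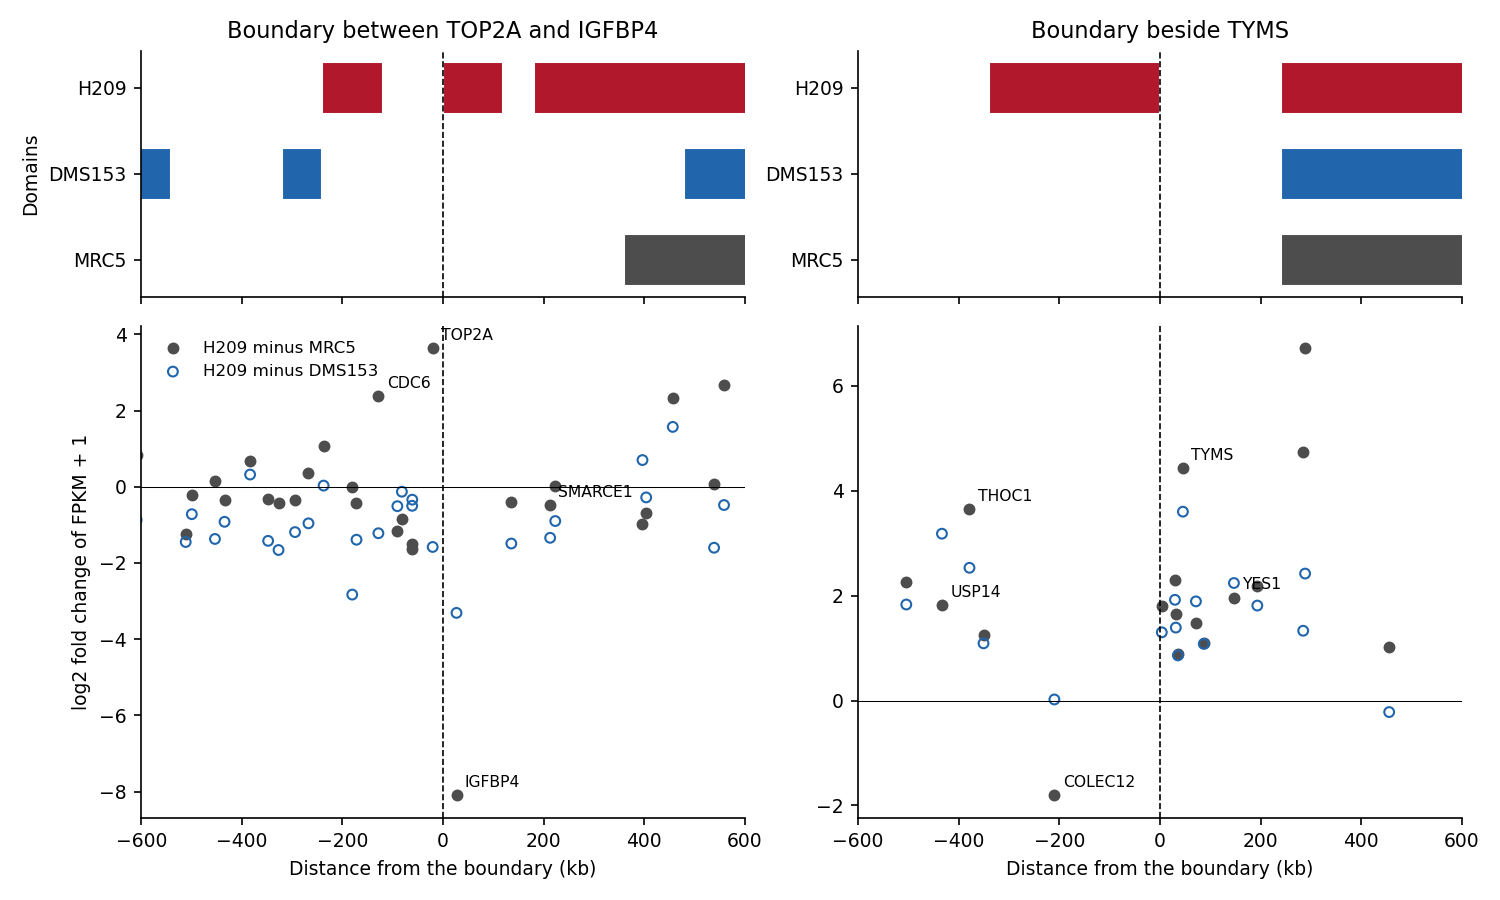
Domains (upper panels, 1 row per line with H209 at the top) and log2 fold changes of tested genes (lower panels, y axis; filled points H209 minus MRC5, open points H209 minus DMS153) by distance in kb (x axis) from the boundary between TOP2A and IGFBP4 and from the boundary beside TYMS. On the right 14 of 17 genes are higher in H209 than in both lines on both sides of the dashed boundary, and on the left IGFBP4 at -8.10 and TOP2A at 3.64 against MRC5 lie on opposite sides of it.

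On chromosome 4 the boundary at 15719999 had 2 genes higher than both lines beside it. FAM200B stood at 189 and 214 FPKM in H209, 23.2, 23.1 and 26.9 FPKM in DMS153 and 43.1, 40.7 and 51.0 FPKM in MRC5. FBXL5, the iron-sensing subunit of a ubiquitin ligase, stood at 81.6 and 75.1 FPKM in H209, 11.2, 11.8 and 10.1 FPKM in DMS153 and 21.0, 19.9 and 21.3 FPKM in MRC5. The libraries of H209 were apart from the rest in both genes, and lack of overlap with DMS153 was a condition for picking them. FBXL5 was higher by 1.87 ± 0.08 log2 units against MRC5 and 2.72 ± 0.08 against DMS153 (limma adjusted p = 3.13e-08 and 1.11e-08). BST1, which contains this boundary and encodes an ADP-ribosyl cyclase at the cell surface, moved in opposite ways, with -2.35 ± 0.10 against MRC5 and 1.03 ± 0.10 against DMS153 (limma adjusted p = 2.27e-08 and 1.34e-05). CC2D2A, a gene of the ciliary transition zone that contains the H209-only boundary at 15559999, was higher too, at 37.1 and 39.5 FPKM in H209, 5.77, 5.59 and 4.45 FPKM in DMS153 and 8.34, 10.3 and 9.61 FPKM in MRC5. Of the 7 other tested genes within 1 Mb of the boundary at 15719999, 2 were called higher than both, with medians of 0.73 and 0.37 against MRC5 and DMS153, lower than the medians of the region on chromosome 18.

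Outside these places, RAB6B, MAP7D2, LINGO1, DLGAP1, CERKL and ZNF883 were among the genes furthest above both lines. RAB6B, a Golgi GTPase found mainly in neurons, stood at 20.1 and 20.0 FPKM in H209, 0.982, 0.862 and 0.855 FPKM in DMS153 and 2.15, 2.16 and 2.11 FPKM in MRC5. MAP7D2, a microtubule-associated protein, had 15.9 and 16.1 FPKM in H209, against 0.399 to 0.857 FPKM in DMS153 and 0.440 to 0.493 FPKM in MRC5. LINGO1, a membrane protein that limits myelination and axon growth, had 15.0 and 16.5 FPKM in H209, against 0.816 to 1.19 FPKM in DMS153 and at most 0.0657 FPKM in MRC5. None of these 3 overlapped between H209 and another line, which was a condition for picking them. DLGAP1, a scaffold protein of the postsynaptic density, stood at 6.46 and 6.43 FPKM in H209, against 0.117 to 0.157 FPKM in DMS153 and at most 0.0142 FPKM in MRC5. CERKL, a ceramide kinase-like protein known from the retina, stood at 20.2 and 26.7 FPKM in H209, 2.36 to 2.74 FPKM in DMS153 and 0.790 to 1.07 FPKM in MRC5. DLGAP1 and CERKL contain the boundary. The genes around them moved less at the median, though around LINGO1, DLGAP1 and ZNF883 they also rose in 1 comparison. The medians of all tested genes were 0.46 against MRC5 and 0.04 against DMS153. Over the other tested genes within 1 Mb the median log2 fold changes against MRC5 and DMS153 were 0.42 and -0.08 at RAB6B, -0.15 and -0.81 at MAP7D2, 0.42 and 0.82 at LINGO1 and -0.05 and -0.11 at CERKL. At DLGAP1, also on the short arm of chromosome 18, they were 0.40 and 1.76, and at ZNF883 they were 1.17 and 0.29.

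**Figure D5:**
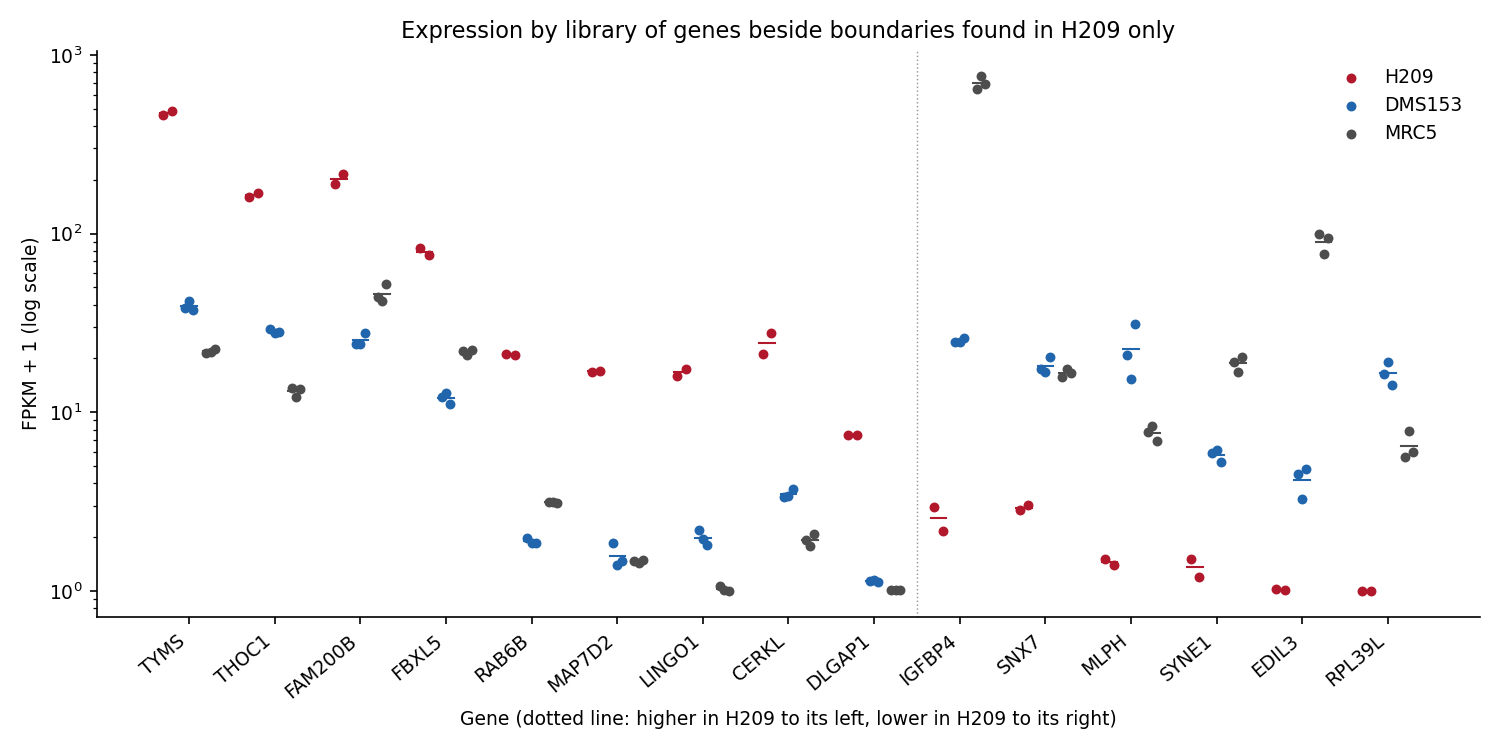
FPKM + 1 (y axis, log scale) in each RNA library (points) with the mean of each line (bars), for genes near H209-only boundaries (x axis), with H209 left, then DMS153 and MRC5. In the 9 genes left of the dotted line every H209 library lies above every other library, as for TYMS at 461 and 486 FPKM, and in the 6 genes to its right every H209 library lies below. Lack of overlap was among the conditions for picking these genes.

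Genes named ZNF with a number, mostly of the C2H2 zinc finger family, made up 31 of the 647 tested genes near H209-only boundaries (4.79%) and 500 of all tested genes (2.62%). Zinc finger genes with other names were not counted. The 31 genes lay near 21 boundaries, and 14 of them on chromosome 19. H209 was higher than MRC5 in 20 (64.5%) and lower in 1, and higher than both lines in 10 (32.3%). Over the 500 tested genes of the family H209 was higher than MRC5 in 278 (55.6%) and higher than both lines in 94 (18.8%), beside 33.0% and 8.07% of all tested genes. Among the 31, the counts higher than MRC5 and higher than both lines were 13 and 8 after median ratio scaling or quantile normalization and 22 and 16 after TPM scaling. ZNF737 stood at 26.6 and 22.9 FPKM in H209, 5.03, 4.26 and 4.18 FPKM in DMS153 and 1.79, 1.84 and 1.69 FPKM in MRC5, and ZNF66 at 7.32 and 5.59 FPKM in H209, 0.609 to 1.12 FPKM in DMS153 and at most 0.0995 FPKM in MRC5. These genes lie at either end of 1 H209-only domain of 220 kb on chromosome 19. ZNF883 stood at 7.89 and 7.27 FPKM in H209, against 0.425 to 0.620 FPKM in DMS153 and 0.342 to 0.570 FPKM in MRC5. Histone genes with names that begin with HIST, of the clusters on chromosomes 1 and 6, were 12 of the tested genes near members (1.85%, against 0.205% of all tested genes). All lay beside 2 boundaries. Of the 12, H209 was higher than MRC5 in 8 (66.7%), higher than DMS153 in 5 (41.7%) and higher than both in 2 (16.7%). Of all 39 tested genes so named, the counts were 23 (59.0%), 19 (48.7%) and 12 (30.8%). Among the 12 near members the counts were 4, 4 and 1 after median ratio scaling, 1, 6 and 1 after quantile normalization and 11, 9 and 8 after TPM scaling. Members of both families share near-identical stretches, so reads may be split among copies. Both families were picked after their values were seen, and no test was made of them.

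Among the genes lower in H209 than in both lines, IGFBP4 (chromosome 17, 38599702 to 38613983 in hg19) fell the most against MRC5, while RPL39L and MLPH fell more against DMS153. It stood at 1.95 and 1.16 FPKM in H209, 23.8, 23.7 and 24.9 FPKM in DMS153 and 639, 756 and 686 FPKM in MRC5. No lines overlapped, and for H209 against either line this was a condition for picking the gene. The log2 fold change was -8.10 ± 0.13 against MRC5 (SE, limma adjusted p = 7.07e-11) and -3.31 ± 0.13 against DMS153 (limma adjusted p = 4.95e-08). The H209-only boundary at 38579999 lies 19.7 kb from IGFBP4, and IGFBP4 is the only tested gene inside the H209 domain that begins there, listed from 38579999 to 38699998 (120 kb, score 1.97), of which both ends were found in H209 only. On the other side, 5.80 kb from the boundary, lies TOP2A (38544768 to 38574202), with 58.1 and 63.5 FPKM in H209, 195, 196 and 161 FPKM in DMS153 and 2.91, 5.43 and 3.86 FPKM in MRC5. TOP2A was higher in H209 than in MRC5 by 3.64 ± 0.18 log2 units and lower than in DMS153 by 1.58 ± 0.18 (limma adjusted p = 8.36e-08 and 5.16e-05). The lower call against DMS153 was lost after TPM scaling. Of the 28 tested genes within 600 kb, 13 were lower in H209 than in DMS153 and 1 higher, beside 13.8% and 13.4% of all tested genes. Over the 42 other tested genes within 1 Mb the median was -0.27 against MRC5 and -0.79 against DMS153.

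SNX7, MLPH, SYNE1, EDIL3 and RPL39L were also below both lines near H209-only boundaries. SNX7, a sorting nexin, contains a boundary and stood at 1.82 and 2.03 FPKM in H209, 16.4, 15.7 and 19.3 FPKM in DMS153 and 14.7, 16.4 and 15.5 FPKM in MRC5. MLPH, which encodes melanophilin, a link between the GTPase RAB27A and myosin, stood at 0.516 and 0.397 FPKM in H209, 20.0, 14.3 and 30.2 FPKM in DMS153 and 6.73, 7.41 and 5.86 FPKM in MRC5. SYNE1, the gene of nesprin-1 of the nuclear envelope, stood at 0.517 and 0.198 FPKM in H209, 4.29 to 5.12 FPKM in DMS153 and 15.8 to 19.4 FPKM in MRC5. In these 3 genes H209 libraries lay below all others, which was a condition for picking them. EDIL3, a secreted ligand of integrins, had 0.0193 and 0.00715 FPKM in H209, 2.26 to 3.82 FPKM in DMS153 and 75.4 to 97.8 FPKM in MRC5. RPL39L, a paralog of the ribosomal protein gene RPL39, was at most 0.00215 FPKM in H209, 13.2 to 18.2 FPKM in DMS153 and 4.60 to 6.90 FPKM in MRC5, and reads of near-identical copies make its level uncertain. STXBP6, a binding partner of SNARE proteins, IFFO1, an intermediate filament family member, the lysosomal protease gene CTSZ, LIMS1 and SH3BGRL3 were also below both lines. The calls of CTSZ, LIMS1 and SH3BGRL3 against DMS153 were lost after TPM scaling.

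Against MRC5 alone, the genes with the largest rises near H209-only boundaries were mostly shared with DMS153. RASSF6, a Ras association domain protein, stood at 109 and 96.8 FPKM in H209, 152, 124 and 151 FPKM in DMS153 and at most 0.00664 FPKM in MRC5. NOL4 stood at 42.0 and 44.1 FPKM in H209, 46.6 to 53.6 FPKM in DMS153 and at most 0.0374 FPKM in MRC5. FRAS1, a basement membrane protein, stood at 35.4 and 33.9 FPKM in H209, 44.9 to 50.2 FPKM in DMS153 and at most 0.0733 FPKM in MRC5. Both carcinoma lines expressed these genes and the fibroblasts had next to none. CHN2, a GTPase-activating protein of Rac, NEBL, an actin-binding protein, TMEM145, MTSS1 and KLHL23 had the same pattern, with log2 fold changes of H209 over MRC5 of 5.01, 4.57, 4.88, 4.55 and 4.47, and of H209 over DMS153 of 0.45, 0.14, 0.46, -0.59 and 0.22. The folds over MRC5 depend on the pseudocount, since CHN2, NEBL and TMEM145 were at or near 0 there. In the other direction HSPB6, a small heat shock protein of muscle, stood at 0.306 and 0.424 FPKM in H209, 0.546 to 0.843 FPKM in DMS153 and 140, 196 and 167 FPKM in MRC5. MASP1, a protease of the complement lectin pathway, stood at 0.0567 and 0.0156 FPKM in H209, 0.157 to 0.535 FPKM in DMS153 and 57.5 to 58.9 FPKM in MRC5. SNHG5, a host of small nucleolar RNAs, stood at 20.9 and 24.2 FPKM in H209, 30.1 to 35.1 FPKM in DMS153 and 561 to 659 FPKM in MRC5. GLT8D2 fell by 4.41 log2 units and its difference from DMS153 did not pass the test (-0.08 ± 0.12, limma adjusted p = 0.556).

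Against DMS153, several of the lowest genes in H209 were low in MRC5 as well. STAG3, the meiotic subunit of cohesin, stood at 1.13 and 1.22 FPKM in H209, 27.4, 32.8 and 27.8 FPKM in DMS153 and 0.0686 to 0.291 FPKM in MRC5. FLT4, which encodes the receptor VEGFR3, stood at 0.0534 and 0.130 FPKM in H209, 12.1, 13.3 and 11.8 FPKM in DMS153 and 0.164 to 0.210 FPKM in MRC5. DPP10, an auxiliary subunit of potassium channels, stood at 0.556 and 0.632 FPKM in H209, 18.4 to 20.6 FPKM in DMS153 and at most 0.000187 FPKM in MRC5. In these genes DMS153 was the line that stood apart. PLD5 (-3.54 log2 units) and TSPAN8, a tetraspanin (-3.18), were lower than in DMS153 in the same way, with at most 0.102 and 2.07 FPKM in H209 and at most 0.00817 and 0.000144 FPKM in MRC5.

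Lists of genes by function had about the same share of tested genes near H209-only boundaries as all tested genes. Of 569 tested genes on 13 lists, 18 lay within 40 kb of a member (3.16%), as did 3.39% of all tested genes. No tested gene of 6 lists did: neuroendocrine markers (49 tested), epithelial markers (33), fibroblast and matrix genes (52), HOX genes (31), transcription factors of development (72) and genes of MHC class I and interferon (40). At a share of 3.39%, lists of this size would have few genes near a member, so these absences are no result about lineage genes. Cell cycle genes had 5 of 47 near a member, BIRC5, CENPE, KIF23, PLK1 and TOP2A, and all 5 were higher in H209 than in MRC5, as were 37 of the 47. CENPE and TOP2A were lower than in DMS153, and after TPM scaling 1 of the 5 was lower and 1 higher. PLK1, a mitotic kinase, stood at 48.0 and 50.1 FPKM in H209, 56.7, 70.8 and 62.0 FPKM in DMS153 and 1.49, 2.81 and 1.59 FPKM in MRC5, and BIRC5, the gene of survivin, at 44.9 and 40.5 FPKM in H209, 32.5, 45.3 and 29.2 FPKM in DMS153 and 1.10, 2.19 and 1.15 FPKM in MRC5.

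Of 49 tested genes of chromatin architecture, 5 lay near an H209-only boundary. NCAPD2, a subunit of condensin I, stood at 57.9 and 61.4 FPKM in H209, 58.9, 73.5 and 58.0 FPKM in DMS153 and 6.59, 6.14 and 6.40 FPKM in MRC5. SMC1A, a core subunit of cohesin, stood at 74.2 and 75.8 FPKM in H209, 104, 128 and 109 FPKM in DMS153 and 13.5, 14.0 and 15.0 FPKM in MRC5. HMGB1, an abundant DNA-bending protein, stood at 617 and 654 FPKM in H209, 412, 405 and 321 FPKM in DMS153 and 137, 144 and 141 FPKM in MRC5. These 3 were higher than in MRC5, as were 31 of the 49, and none of the 5 was called against DMS153 by limma. After median ratio scaling 1 of the 5 was lower than MRC5, and after quantile normalization or TPM scaling 1 was higher than DMS153. CBX3, which encodes heterochromatin protein 1 gamma, was above MRC5 by 0.99 ± 0.09 log2 units (limma adjusted p = 3.90e-06) and EMD, the gene of emerin, below it by 0.58 ± 0.09 (limma adjusted p = 2.48e-04), both under the size needed for a call.

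The remaining list genes near H209-only boundaries came from other lists. FLNA, the actin crosslinker filamin A, contains one on the X chromosome and stood at 91.2 and 102 FPKM in H209, 90.1, 98.8 and 90.2 FPKM in DMS153 and 657, 753 and 698 FPKM in MRC5. LIMS1, an adaptor of focal adhesions, stood at 6.35 and 5.48 FPKM in H209, 14.9, 11.1 and 17.6 FPKM in DMS153 and 31.4, 24.8 and 29.9 FPKM in MRC5. NOTCH2 also contains one, at 1.36 and 1.26 FPKM in H209, 1.19 to 1.60 FPKM in DMS153 and 23.9 to 26.5 FPKM in MRC5, with a near-identical copy elsewhere that may share reads. RBFOX1, a neuronal splicing factor, stood at 2.04 and 2.04 FPKM in H209, 7.91, 6.72 and 9.41 FPKM in DMS153 and at most 3.4e-05 FPKM in MRC5. SV2A, a synaptic vesicle protein, differed from MRC5 by 0.97 ± 0.07 log2 units (limma adjusted p = 1.58e-06), under the size of a call, and from DMS153 by 0.03 ± 0.07 (limma adjusted p = 0.729). KEAP1, a ubiquitin ligase adaptor that a boundary lies inside, was called in neither comparison (0.25 ± 0.11 against MRC5 and 0.22 ± 0.11 against DMS153, limma adjusted p = 0.0579 and 0.0940). GAPDH and RPL10, both with many processed copies in the genome, gave calls that turned on the scaling: GAPDH was 1.03 log2 units above DMS153, lost after median ratio scaling and without the second H209 library, and RPL10 was 1.26 below MRC5, lost after quantile normalization.

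A boundary separates its neighbours, so the nearest tested genes on each side were set side by side. At 75 H209-only boundaries a tested gene ended and another began within 40 kb on either side, whether or not a further gene crossed the boundary. Both neighbours were called in the same direction against MRC5 at 6 of them (8.00%) and in opposite directions at 5 (6.67%), against 135 (17.3%) and 66 (8.44%) of 782 such boundaries found in all 3 lines. Against DMS153 they were called alike at 10 (13.3%) and oppositely at 0, against 57 (7.29%) and 8 (1.02%). No tested gene crossed 30 of the 75 boundaries, and among these both neighbours were called alike against MRC5 at 4 (13.3%) and oppositely at 5 (16.7%), against 78 (19.5%) and 35 (8.73%) of 401 such boundaries found in all 3 lines. Against DMS153 they were called alike at 5 and oppositely at 0 of the 30. This restriction was added after the data were seen, and neither it nor the whole set was tested. The 5 opposite pairs were TOP2A and IGFBP4, CDC6 and RARA, PXDN and MYT1L, ZNF367 and HABP4, and the clone RP11-705O1.8 and COLEC12. CDC6, a loader of the replicative helicase, stood at 13.1 and 14.1 FPKM in H209, 32.7, 36.1 and 30.4 FPKM in DMS153 and 1.44, 2.23 and 1.83 FPKM in MRC5. RARA, a retinoic acid receptor, stood at 4.70 and 5.55 FPKM in H209, 7.21, 6.92 and 9.03 FPKM in DMS153 and 11.3, 14.9 and 11.7 FPKM in MRC5. Its boundary at 38460000 of chromosome 17 is a neighbour of the one between TOP2A and IGFBP4. MYT1L, a neuronal transcription factor, was 3.89 ± 0.10 log2 units above MRC5 and PXDN, a peroxidase of basement membranes, 3.11 ± 0.15 below it (limma adjusted p = 1.26e-09 and 6.66e-08), and both were above DMS153.

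At 7 H209-only boundaries at least 2 genes within 40 kb were called alike against both lines, a count not made for the other classes of boundaries. Beside those on chromosomes 4 and 18, they were at 7399999 of chromosome 17 (POLR2A and CHRNB1, higher), 9439999 of chromosome 19 (ZNF559 and ZNF177, higher), 4360000 of chromosome 11 (the pseudogenes SSU72P3 and SSU72P7, higher) and 107219999 of chromosome 7 (BCAP29 and COG5, lower). POLR2A, the largest subunit of RNA polymerase II, contains its boundary and stood at 79.7 and 82.3 FPKM in H209, 25.2, 26.8 and 28.0 FPKM in DMS153 and 35.7, 35.9 and 33.0 FPKM in MRC5. COG5, of the Golgi tethering complex, stood at 7.53 and 7.99 FPKM in H209, 29.8, 32.7 and 30.6 FPKM in DMS153 and 26.3, 22.4 and 28.1 FPKM in MRC5. ZNF559 stood at 19.8 and 18.0 FPKM in H209, 8.06, 8.29 and 7.05 FPKM in DMS153 and 4.87, 5.47 and 5.15 FPKM in MRC5. In each of these 3 genes, chosen after their values were seen, the libraries of H209 were apart from all others. Among the other tested genes within 1 Mb, 14 of 89 around POLR2A and 4 of 40 around ZNF559 were called higher than both lines, beside 8.07% of all tested genes. Around COG5 2 of 15 were called lower than both, beside 2.82%. Of the 89 around POLR2A, 73 lay above DMS153 and 62 above MRC5, with median log2 fold changes of 0.86 and 0.62. The medians against DMS153 and MRC5 were 0.32 and 0.21 around ZNF559 and -0.54 and -0.10 around COG5. SSU72P3 and SSU72P7 were listed at 0 in DMS153 and MRC5, and as near-identical copies their values are uncertain.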

How the data were processed

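Per the submitters' processing notes, the tools were Bowtie2, TopHat2 2.1.0, Cufflinks 2.2.0 and HOMER 4.8 on hg19; the settings and which step used which are not given in these sources. The authors deposited RNA values as FPKM per gene, per the file headers, with a confidence interval and a status. The deposited domain lists, without a header, give chromosome, start, end and a score whose meaning is not stated. The labels give no strand or RNA selection, so overlapping genes may share reads. The files give no counts, so the depth of the libraries is unknown. The summed level of neuroendocrine markers is not reported here.

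Starts, and ends plus 2 bases, were taken as positions, so that an end and the abutting start differ by 1 base. A gene was near a boundary when its listed locus lay within 40 kb or contained it. FPKM was analysed as log2(FPKM + 1) with limma 3.58.1 in R 4.3.3, eBayes with a trend and all 8 libraries in 1 fit, after tests on simulated data. Of the near genes tested, 10 had a failed status in at least 1 library and were kept. No fold is given for a gene listed at 0 in a whole line. RefSeq promoters (GRCh38.p14) matched 435 of 645 near gene names.

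The members, gene lists and tests were chosen with earlier results of these data known. Named genes near members are, for each comparison and for both together, the 8 called genes that rose most and the 8 that fell most, provided that libraries did not overlap and the higher line averaged 5 FPKM or more. Up to 3 near genes of each list and those beside the 5 farthest members were added. The rest (genes in loci with at least 2 calls, in opposite pairs and around TYMS, both families, and further cell cycle and chromatin genes) were chosen after their values were seen. Same-numbered libraries of different lines correlated in their deviations by -0.0118 to 0.123, so numbers were not taken as pairs. Alternatives covered the boundary definition, distances, pseudocount, filter, scaling, status, samples in the fit, replicate number and single libraries.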

Additional observations from a re-analysis of the deposited data

Results flagged for a closer look

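In 5 genes near H209-only boundaries, H209 and DMS153 were called in opposite directions against MRC5, and the difference between H209 and DMS153 itself passed the test. The comparisons share the MRC5 libraries. ANXA3, a calcium-dependent membrane-binding protein, stood at 10.1 and 7.13 FPKM in H209, 0.731, 0.983 and 1.37 FPKM in DMS153 and 3.50, 3.82 and 3.24 FPKM in MRC5, a log2 difference of 2.24 between H209 and DMS153 (limma adjusted p = 2.42e-06). SPESP1, a sperm acrosome protein, stood at 4.76 and 4.51 FPKM in H209, at most 0.0446 FPKM in DMS153 and 1.28 to 1.63 FPKM in MRC5, a log2 difference of 2.44 (limma adjusted p = 2.57e-08). ZNF300 stood at 0.0430 and 0.0430 FPKM in H209, 4.40 to 5.61 FPKM in DMS153 and 1.69 to 2.26 FPKM in MRC5, a log2 difference of -2.55 (limma adjusted p = 1.42e-07). MLPH and RPL39L were lower in H209 and higher in DMS153 than in MRC5, with log2 differences between H209 and DMS153 of -3.89 and -4.04 (limma adjusted p = 9.74e-07 and 7.49e-08).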

How the results depend on the processing

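The number of H209-only boundaries was 546 and lay between 373 and 816 under the other definitions tried, except that 312 were found with no other boundary within 100 kb and 23 where only abutting domains were counted. With starts moved by 1 base, added after seeing the data, 541 were found.

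Counts of near genes moved by over 1.5 times under a few settings, given in the order higher and lower than MRC5, higher and lower than DMS153, and higher and lower than both. They were 393, 175, 146, 141, 96 and 32 with genes within 100 kb, and 110, 50, 45, 42, 30 and 11 for boundaries with no other within 100 kb, where more or fewer genes enter. Median ratio scaling gave 135 and 173 against MRC5. TPM scaling gave 204 and 44 against DMS153 and 126 and 13 against both. A pseudocount of 0.1 gave 37 lower than both. The median of all genes against MRC5 was 0.46 log2 units on deposited FPKM, -0.03 after median ratio scaling, 0.03 after quantile normalization and 0.70 after TPM scaling, and against DMS153 it was 0.04, and 0.59 after TPM scaling. Why the scalings differ was not tested. Leaving out 1 library gave 196 to 218, 100 to 101, 55 to 83, 68 to 76, 32 to 51 and 20 to 23 genes. Without H209 replicate 1, 32 genes were higher than both.

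With the replicate number as a block the counts were 215, 100, 78, 73, 52 and 19, and no call of a gene named by rule changed. The numbers were not treated as a pairing.

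Calls were followed through the alternatives for the 52 genes named by rule. Of their 73 called results, 67 stayed called under every alternative and none of 104 changed direction. The exceptions among them are given with the genes above. Genes chosen after their values were seen were not in this check, so their calls may be less stable. The files hold no counts, so what depth limits cannot be given, and with 1 Hi-C library per line the boundaries have no replicate check.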
